A study of Mus musculus domesticus and Mus musculus molossinus with 8 samples.

Results

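The necroptosis and pyroptosis genes described here are 10 of the 23284 genes measured, chosen by name as components of these pathways: Ripk3, Mlkl, Gsdmd, Casp1, Casp4, Nlrp3, Aim2, Il1b, Il18 and Pycard. Each had 1 row in both deposited tables, so all 10 had a level in every library. The mice were C57BL/6 (B6), a classical inbred strain, and MSM/Ms (MSM), an inbred strain derived from wild Japanese mice, all aged 8 weeks. In each strain 1 mouse was left untreated and 1 was injected intraperitoneally with MegaFasL at 1.5 µg, a ligand in multimeric form for the death receptor Fas. Liver and thymus were taken from each of the 4 mice, and polyadenylated RNA of each was sequenced as 1 library, which gave 8 groups of 1 library. The sources used here give neither the time from injection to collection nor the sex of the mice.

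Necroptosis and pyroptosis are lytic forms of cell death that release cell contents and inflammatory cytokines, in contrast to apoptosis, which Fas triggers through caspase-8. In necroptosis the kinase RIPK3 phosphorylates the pseudokinase MLKL, which then permeabilises the plasma membrane, and active caspase-8 holds this route in check. In pyroptosis a sensor such as NLRP3 or AIM2 recruits the adaptor ASC (gene Pycard) and caspase-1, or caspase-11 (gene Casp4) senses bacterial lipopolysaccharide directly. These caspases cut gasdermin D, whose freed end forms membrane pores, and caspase-1 matures the cytokines IL-1β and IL-18.

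Levels are FPKM, fragments scaled by transcript length and by the size of the library, so they can be set side by side between genes. How the size of a library was computed is not given in the sources used here. The tables hold no fragment counts, and numbers of fragments given here were estimated from the steps between low FPKM values. By that estimate, 1 FPKM on 1 kb of transcript stood for 1.56 to 1.78 fragments in liver libraries and 2.82 to 3.42 in thymus libraries, and intervals drawn from it cover counting error only. The liver libraries held the defining hepatocyte genes at a summed 112000 FPKM or more, and thymocyte genes summed to between 1240 and 2120 FPKM in thymus and to 35.6 FPKM or less in liver. The untreated MSM thymus stood apart: its 10 hepatocyte markers summed to 3470 FPKM, against 64.3 to 247 in the other thymi, and its 8 airway and fat markers to 2260 FPKM, against 133 to 200. For the genes of the set, the tissue differences and the strain differences in thymus are given with and without it. So are the tests of the tissue ratio for the genes named there. The partner lists are given with it unless stated. The untreated B6 liver stood apart in thymocyte genes, which summed to 35.6 FPKM there and to between 4.67 and 5.88 FPKM in the other livers. Treatment coincides with the separately normalized table, so differences between injected and untreated mice were not tested within a tissue and their values are only set side by side.

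In liver the best expressed gene of the 10 was Il18, with a mean of 18.1 ± 6.46 FPKM (SD, n = 4 libraries that span both strains and treatments). Next came Gsdmd at 10.2 ± 7.11 and Mlkl at 3.66 ± 1.79 FPKM, and the ranges of Il18 and Gsdmd overlapped. The other 7 averaged between 0.25 and 1.35 FPKM in liver, a few fragments per library, and their order could not be resolved beyond their spread. In thymus the order was another one: Pycard led at 26.2 ± 1.25 FPKM, followed by Gsdmd at 9.5 ± 2.22 and Ripk3 at 7.85 ± 1.69 FPKM, which overlapped each other. Aim2, Casp1, Il18 and Casp4 averaged 3.5, 2.66, 2.58 and 2.29 FPKM there, with overlapping ranges, and Mlkl, Il1b and Nlrp3 lay at 1.2, 0.702 and 0.277 FPKM.

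**Figure D1:**
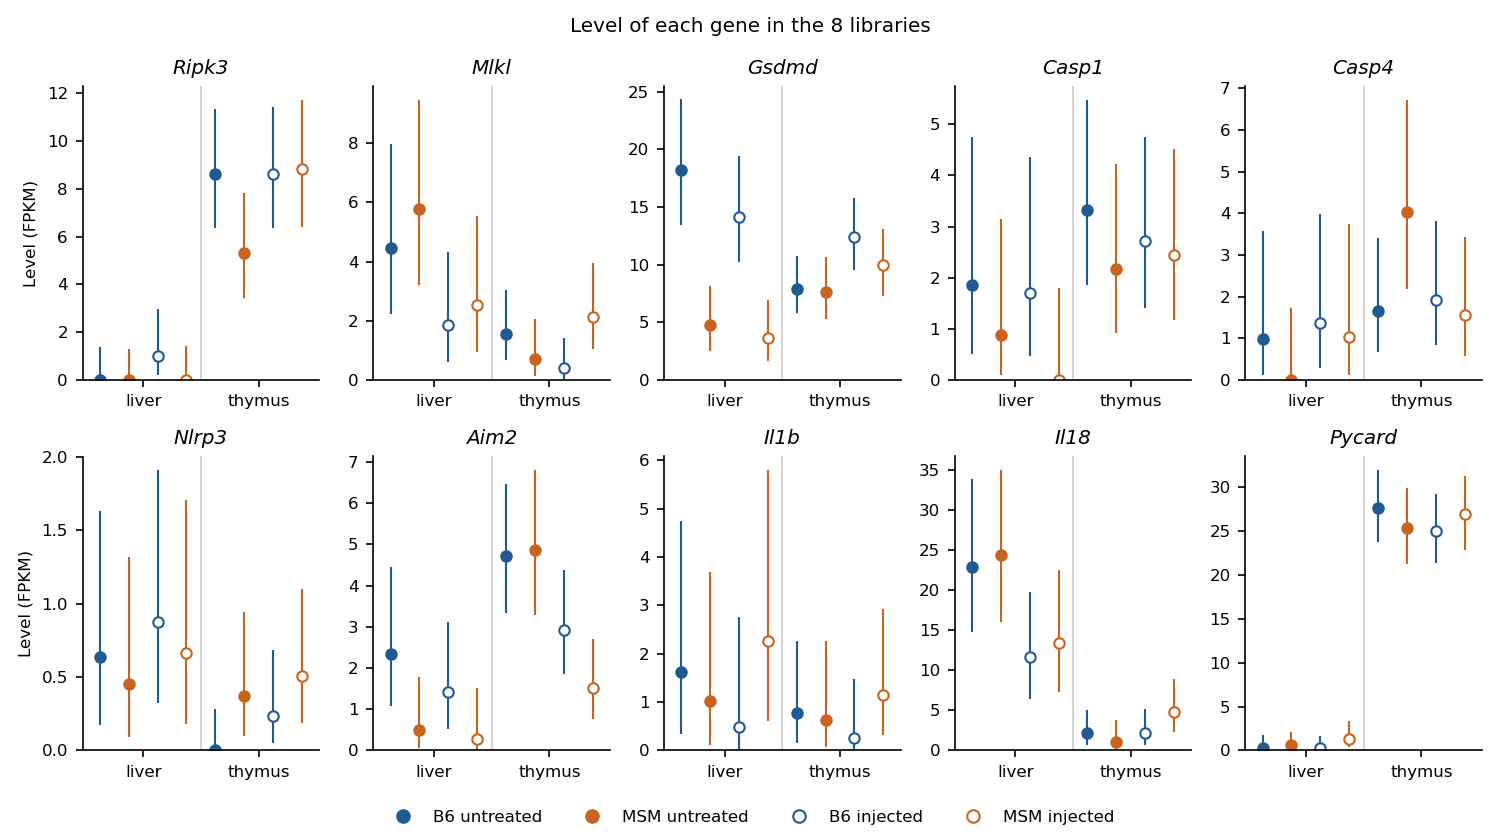
Level of each gene in FPKM (vertical axes, each panel on its own linear scale from 0) in the 8 libraries, with liver on the left and thymus on the right of each panel; blue is B6, orange is MSM, filled points are untreated and open points injected mice, and bars are 95% Poisson intervals of the estimated fragments, which cover counting error only. Pycard and Ripk3 were high in thymus, Il18 in liver, and the B6 livers at 18.2 and 14.1 FPKM of Gsdmd stood above the MSM livers at 4.77 and 3.64.

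The clearest pattern was between the tissues of the same mouse. Liver minus thymus was tested with limma on log2(FPKM + 1), mouse as a block, over 12880 genes that averaged at least 1 FPKM in either tissue, with Benjamini-Hochberg adjusted p under 0.05 as the threshold. Of the 9 genes that entered, 6 passed, Il18 and Mlkl higher in liver and Pycard, Ripk3, Aim2 and Casp1 higher in thymus, where 60.7% of all genes passed, 28.6% higher in liver and 32.1% lower. A share of this size among the necroptosis and pyroptosis genes was therefore near that of genes at large. The median difference was -0.85 over the 9 genes and -0.13 over all genes tested. In 5 of the 9 the levels of the tissues did not overlap, as in 56.3% of all genes. Rescaling every library to a common sum (TPM) moved the median of all genes from -0.13 to -0.99, so small tissue differences depend on the scale. On that scale 1 of the 9 genes was higher in liver, Il18, and 6 were lower, Gsdmd and Casp4 among them. Of all 12880 genes, 2075 were higher in liver on that scale and 7309 lower. Without the untreated B6 mouse, whose liver held the thymocyte genes, Pycard was -3.99 (limma adjusted p 0.00067), Ripk3 -2.74 (0.00223), Il18 2.30 (0.0139) and Aim2 -1.21 (0.0397), while Casp1 (0.0721) and Mlkl (0.0846) no longer passed. In bulk tissue, fewer cells of a type and less RNA per cell cannot be told apart.

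**Figure D2:**
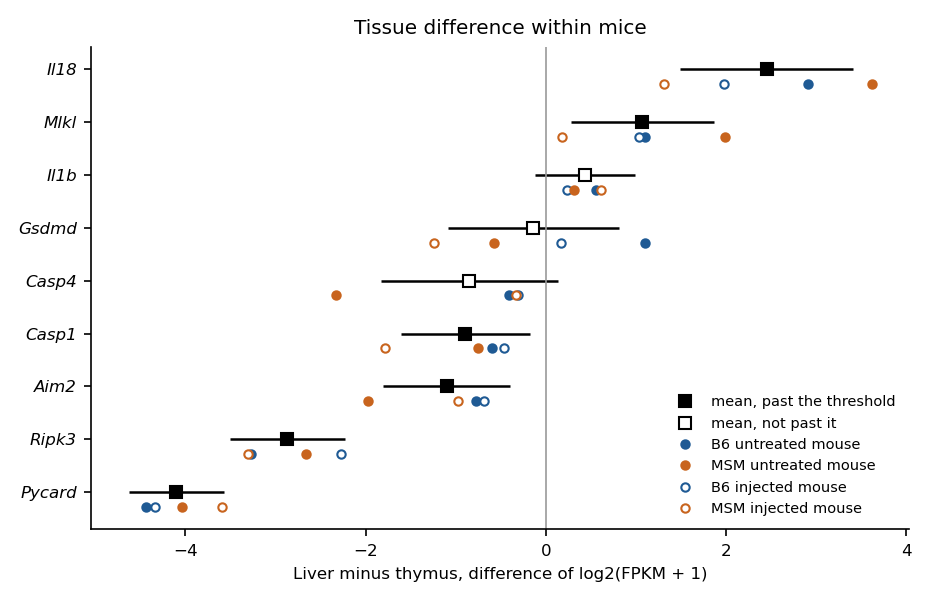
Liver minus thymus difference of log2(FPKM + 1) (horizontal axis) for the 9 genes tested; squares are limma estimates with 95% intervals, filled where the adjusted p was under 0.05, and the small points below each are the 4 mice. Pycard at -4.10 and Ripk3 at -2.87 lay farthest to the thymus side in every mouse and Il18 at 2.45 farthest to the liver side.

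Of the necroptosis pair, the kinase and its target leaned to opposite tissues. Ripk3 (chr14:55784995-55788857, mm10, coordinates as deposited and counted from 1) encodes the kinase whose oligomers start necroptosis. It was listed at 0 in the untreated B6, untreated MSM and injected MSM livers and at 1.00 FPKM, an estimated 3 fragments, in the injected B6 liver. In thymus it was at 8.64 and 8.64 FPKM in the untreated and injected B6 mouse and at 5.32 and 8.82 FPKM in the untreated and injected MSM mouse. Every thymus thus lay above every liver, with 25 to 49 estimated fragments per thymus library. Liver minus thymus was -2.87 ± 0.26 (SE) on the log2(FPKM + 1) scale, with a limma adjusted p of 0.000287, lower in liver in 4 of 4 mice. Against the level that 3 fragments stand for in the same mouse's liver, 1.04 to 1.15 FPKM in the 3 livers at 0, Ripk3 was at least 7.82-fold higher in thymus in the untreated B6 mouse, at least 5.11-fold in the untreated MSM mouse and at least 7.65-fold in the injected MSM mouse. The call held in all 13 alternative settings, and without the untreated MSM mouse the difference was -2.94 with a limma adjusted p of 0.00102.

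Mlkl (chr8:111311800-111337903) encodes the pseudokinase that breaches the membrane once RIPK3 has phosphorylated it. Its liver levels were 4.46 and 5.78 FPKM in the untreated B6 and MSM mouse and 1.85 and 2.54 FPKM in the injected mice. In thymus they were 1.55 and 0.708 FPKM in the untreated B6 and MSM mouse and 0.395 and 2.14 FPKM in the injected ones. The tissues overlapped, since the injected MSM thymus lay above the injected B6 liver, but liver was the higher tissue within each of the 4 mice. The difference of 1.07 ± 0.33 on the log2(FPKM + 1) scale passed the test, with a limma adjusted p of 0.0296. It no longer passed on the TPM scale, at 0.42 with a limma adjusted p of 0.304, or without the untreated MSM mouse, at 0.77 with 0.0876. Nor did it pass without a filter on low values (limma adjusted p 0.128), without the injected B6 mouse (0.079) or, as given above, without the untreated B6 mouse. The estimate rests on 2 to 15 fragments per library.

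Partners of this pair were read from a list of 20 genes, all of them measured in both tissues. Between tissues, 4 were higher in liver and 6 lower by the limma test, beside 28.6% and 32.1% of all genes, with a median difference of -0.21. Those higher in liver were Tnfrsf1a, the receptor for TNF, at 0.96, the deubiquitinase gene Otulin (listed under its older symbol Fam105b) at 0.92, the phosphatase gene Ppm1b at 0.85 and Ticam1, the TRIF adaptor of Toll-like receptors, at 0.75. Lower in liver were Traf2 at -1.59, the deubiquitinase gene Cyld at -1.16, the Z-nucleic acid sensor gene Zbp1 at -1.05, Birc2 at -0.92, Casp8 at -0.82 and Birc3 at -0.70. On the TPM scale 0 of the 20 were higher in liver and 13 lower, beside 2075 and 7309 of all 12880 genes. The estimates of Tnfrsf1a, Otulin, Ppm1b and Ticam1 turned negative there, at -0.06, -0.08, -0.20 and -0.10. Ticam1 no longer passed without the untreated MSM mouse, or without the untreated B6 mouse. Casp8, the Fas effector that restrains necroptosis, was present in every liver, at 13.8 and 12.6 FPKM in B6 and 6.31 and 2.67 FPKM in MSM. Beside it, Ripk3 reached an estimated 3 fragments over all 4 liver libraries together.

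Of the inflammasome sensors in the set, Nlrp3 was low in both tissues and Aim2 was low in liver. Nlrp3 (chr11:59542686-59566956), the sensor of membrane damage and ion flux, was at 0.637 and 0.873 FPKM in the untreated and injected B6 liver and at 0.454 and 0.666 FPKM in the MSM livers. In thymus it was listed at 0 in the untreated B6 mouse and at 0.233, 0.371 and 0.504 FPKM in the injected B6, untreated MSM and injected MSM mouse. These levels stand for 6 fragments or fewer per library, the tissues overlapped, and Nlrp3 fell under the filter of 1 FPKM in each comparison. Aim2 (chr1:173420604-173466036), a cytosolic DNA sensor, was better expressed in thymus, at 4.72 and 2.92 FPKM in the untreated and injected B6 mouse and at 4.85 and 1.51 FPKM in MSM. Its liver levels were 2.35 and 1.43 FPKM in the B6 mice and 0.495 and 0.272 FPKM in the MSM mice. Aim2 was lower in liver in 4 of 4 mice, by -1.10 ± 0.29 on the log2(FPKM + 1) scale with a limma adjusted p of 0.0171, although the untreated B6 liver exceeded the injected MSM thymus. Without the untreated MSM mouse the difference was -0.82 with a limma adjusted p of 0.0471, and the call was lost only without a filter on low values, among 12 alternatives.

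Pycard (chr7:127991373-127993867) encodes ASC, the adaptor that links sensors to caspase-1. It was at 27.6 and 25 FPKM in the untreated and injected B6 thymus and at 25.3 and 26.9 FPKM in the MSM thymi. The liver levels were 0.315 and 0.287 FPKM in B6 and 0.598 and 1.32 FPKM in MSM. Each thymus held an estimated 139 to 184 fragments and each liver 1 to 4, so the tissues lay far apart while the 4 thymi differed little among themselves. The ratio of the tissue means was 41.7, and liver minus thymus was -4.10 ± 0.22 on the log2(FPKM + 1) scale with a limma adjusted p of 7.44e-05. It passed in all 13 alternatives, at -4.12 with a limma adjusted p of 0.000167 without the untreated MSM mouse.

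Casp1 and Casp4 are neighbours on chromosome 9, at chr9:5298517-5307281 and chr9:5308860-5336791, both on the plus strand, and encode related inflammatory caspases. Where near-identical genes share reads, their levels can be mixed, so the coding sequences were compared in GENCODE M21 (mm10). The aligned coding regions were identical at 691 bases and different at 423, an identity of 62.0%, the longest identical run was 12 bases, and no stretch of 50 bases was shared between them or with any other gene. The stretch that codes for the active-site cysteine is the most familiar part of both proteins and is shown as spliced coding sequence, 57 bases each, with the 18 bases that differ in capitals. It spans exons 6 and 7 of Casp1 (chr9:5303738-5304206) and exons 5 and 6 of Casp4 (chr9:5324922-5327195).
Casp1: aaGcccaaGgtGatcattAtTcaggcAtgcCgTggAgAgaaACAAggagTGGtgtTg
Casp4: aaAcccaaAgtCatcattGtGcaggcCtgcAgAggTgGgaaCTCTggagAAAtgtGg
Even in this conserved stretch the genes differed at 18 of 57 positions. Among the other 8 genes, 1 shared any stretch of 50 coding bases with another gene: 8 such stretches of Aim2, 0.8% of its total, also occurred in the gene model Gm7871.

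Casp1, the protease that matures IL-1β and IL-18, was at 3.32 and 2.71 FPKM in the untreated and injected B6 thymus and at 2.16 and 2.45 FPKM in the MSM thymi. In liver it was at 1.86 and 1.70 FPKM in B6 and at 0.881 and 0 FPKM in MSM, 4 fragments or fewer per library. Every thymus lay above every liver, and the difference of -0.90 ± 0.29 on the log2(FPKM + 1) scale had a limma adjusted p of 0.0379. This call did not survive leaving out any 1 of the 4 mice, with differences of -1.04 to -0.60 and limma adjusted p of 0.0618 to 0.0926. Casp4, the lipopolysaccharide-sensing caspase, was at 0.990 and 1.36 FPKM in the B6 livers and at 0 and 1.03 FPKM in the untreated and injected MSM liver. Its thymus levels were 1.65 and 1.93 FPKM in B6 and 4.03 and 1.57 FPKM in the untreated and injected MSM mouse. The tissues did not overlap, but the difference of -0.85 ± 0.40 gave a limma adjusted p of 0.113, and the untreated MSM mouse contributed most of it, since without that mouse it was -0.35.

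Gsdmd (chr15:75862339-75867404) encodes gasdermin D, the pore former that both caspases cut. It was at 18.2 and 14.1 FPKM in the untreated and injected B6 liver and at 4.77 and 3.64 FPKM in the MSM livers. In thymus the levels were 7.92 and 12.4 FPKM in B6 and 7.65 and 9.99 FPKM in MSM. All 4 thymi lay between the MSM livers and the B6 livers. Liver minus thymus averaged -0.14 ± 0.39, with a limma adjusted p of 0.773, and was 1.10 and 0.17 in the untreated and injected B6 mouse and -0.58 and -1.24 in the MSM mice. Without the untreated MSM mouse it averaged 0.01, with a limma adjusted p of 0.987.

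The cytokine genes differed from each other in tissue and level. Il18 (chr9:50565368-50581837) was at 22.9 and 24.4 FPKM in the untreated B6 and MSM liver and at 11.7 and 13.4 FPKM in the injected livers. In thymus it was at 2.18 and 1.07 FPKM in the untreated B6 and MSM mouse and at 2.23 and 4.83 FPKM in the injected ones. All livers exceeded all thymi, with 14 to 28 estimated fragments per liver library and 2 to 10 per thymus library. Il18 was higher in liver by 2.45 ± 0.39 on the log2(FPKM + 1) scale, with a limma adjusted p of 0.00257, a 7.02-fold ratio of the tissue means, and the call held in all 13 alternatives. Without the untreated MSM mouse it was 2.06 with a limma adjusted p of 0.00479. Il1b (chr2:129364580-129375733) was at 1.62 and 0.494 FPKM in the untreated and injected B6 liver, at 1.03 and 2.26 FPKM in the MSM livers, and between 0.264 and 1.14 FPKM in thymus. No library held more than 4 fragments of it, the tissues overlapped, and the difference of 0.43 ± 0.23 had a limma adjusted p of 0.143. Without the untreated MSM mouse that difference was 0.47, with a limma adjusted p of 0.208.

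Genes that act around the inflammasome were called in both directions, as genes at large were. Of 32 inflammasome and pyroptosis partners, 31 were in the tables and 24 entered the limma test, of which 4 were higher in liver and 9 lower, beside 28.6% and 32.1% of all genes, with a median of -0.67. Higher in liver were Ninj1, which ruptures the plasma membrane after gasdermin pores form, at 3.38, the sensor genes Nlrp6 at 3.28 and Nlrp12 at 1.87, and the GTPase gene Irgm1 at 1.07. Among those lower were Pstpip1, a pyrin-binding scaffold, at -3.85, the channel gene Panx1 at -3.11, the transcription factor gene Irf8 at -2.23, Trim30a at -1.94 and Txnip at -1.91. Gbp2, Nlrp1a, Bcl10 and Gbp5 were lower by smaller differences, -1.22, -0.85, -0.74 and -0.70. Ninj1 was at 72.9 to 84.8 FPKM in the 4 livers and 5.30 to 9.90 FPKM in the thymi. Nlrp6 and Nlrp12 no longer passed without the untreated B6 mouse, or without a filter on low values. On the TPM scale 3 were higher in liver, without Irgm1, and 15 lower, beside 2075 and 7309 of all 12880 genes.

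The receptors and modulators of the IL-1 family were mostly higher in liver on the FPKM scale, less so on the TPM scale. Of 19 listed genes 18 were in the tables, 14 entered the limma test, 8 were higher in liver and 2 lower, beside the same shares of all genes, with a median of 0.78. Il1rap, the shared accessory receptor chain, led at 4.32 ± 0.17, with 73.2 to 93.5 FPKM in the livers against 2.19 to 4.49 FPKM in the thymi. The receptor gene Il1r1 followed at 1.82, the receptor antagonist gene Il1rn at 1.78, the cytokine genes Il1a and Il33 at 1.65 and 1.50, the kinase genes Irak2 and Irak1 at 1.32 and 0.88, and the inhibitory receptor gene Sigirr at 0.68. Lower in liver were Il18r1, a chain of the IL-18 receptor, at -1.35 and the ubiquitin ligase gene Traf6 at -1.13. On the TPM scale 3 were higher, Il1rap, Il1rn and Il1a, and 5 lower, beside 2075 and 7309 of all 12880 genes. The median was -0.14 there, against -0.99 over all genes, and the estimates of Irak1 and Sigirr turned negative. Without the untreated MSM mouse Il33 and Sigirr no longer passed as higher in liver, and without the untreated B6 mouse Il1a and Sigirr did not. Il18 was thus higher in liver, and the gene of its receptor chain in thymus.

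Strain differences, MSM minus B6, were fitted separately for liver and thymus, with treatment as a block so that both mice compared stand in the same table, and 1 residual degree of freedom was left in each fit. No strain and treatment was replicated, so the p-values measure how far a strain difference varied between the treatments, moderated across genes, and not the spread among mice. In liver 0 of the 6 genes that passed the filter were past the limma threshold, where 1.47% of 10971 genes were. For 1 of the 6, Gsdmd, the unadjusted limma p was under 0.05, where it was for 1774 of the 10971 genes. The levels of the strains did not overlap for 3 of the 6, Gsdmd, Casp1 and Aim2, against 43.3% of all genes. In thymus 0 of 8 passed, where 0.973% of 11610 genes did, and 0 had an unadjusted limma p under 0.05, where 1505 of the 11610 did. The strains did not overlap for 1 of the 8, Casp1, against 45.4% of all genes.

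Gsdmd had the largest strain difference of the 6 genes tested in liver on the log2(FPKM + 1) scale, but with 0.1 added in place of 1 those of Casp1 at -2.58 and Aim2 at -2.04 were larger than that of Gsdmd at -1.92. B6 livers averaged 16.1 FPKM and MSM livers 4.2 FPKM, and the difference was -1.73 in untreated and -1.71 in injected mice on the log2(FPKM + 1) scale. The limma estimate was -1.72 ± 0.27, with a 95% interval of -2.42 to -1.01, an unadjusted p of 0.00163 and an adjusted p of 0.0729, just short of the threshold. Over 13 alternatives the limma adjusted p ran from 0.0249 to 0.554, and it passed in 2 of them, on the TPM scale at -1.87 with 0.0249 and with both tissues in one fit at -1.72 with 0.0385. Without the untreated B6 liver, in the fit of both tissues, it was -1.71 with a limma adjusted p of 0.28. By estimated fragments the B6 to MSM ratio was 3.84 in untreated mice (47 against 13 fragments, 95% interval 2.04 to 7.73) and 3.90 in injected mice (40 against 9, 1.86 to 9.13), intervals of counting error only. In thymus the same gene gave ratios of 1.04 (0.65 to 1.69) and 1.25 (0.847 to 1.85), and the limma estimate was -0.17 ± 0.24 with an adjusted p of 0.828.

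Whether the strain difference of Gsdmd itself differed between the tissues was tested on each mouse's ratio of liver to thymus. The MSM minus B6 difference of that ratio was -1.55 ± 0.37 (95% interval -2.48 to -0.63), with an unadjusted limma p of 0.007 and an adjusted p of 0.213. Without the untreated MSM mouse, with the treatment term dropped, it was -1.88 with a limma adjusted p of 0.387. Of the 9 genes 0 passed, where 0.365% of 12880 genes passed. An unadjusted limma p under 0.05 was found for 1 of the 9, Gsdmd, and for 1626 of the 12880 genes.

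**Figure D3:**
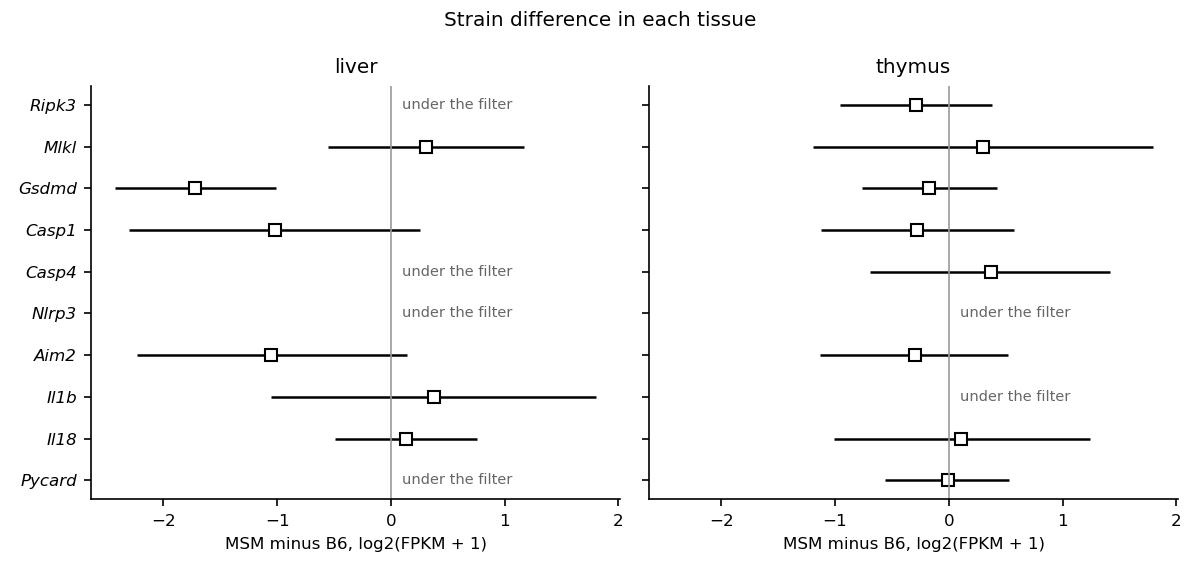
MSM minus B6 difference of log2(FPKM + 1) (horizontal axes) in liver and thymus; squares are limma estimates with 95% intervals, all open because 0 passed the threshold, and genes that averaged under 1 FPKM in a tissue are marked as under the filter. The liver interval of Gsdmd, -2.42 to -1.01, lies below 0, whereas its thymus estimate is -0.17.

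Other sets of genes were lower in the MSM livers beside Gsdmd. The 14 macrophage and Kupffer cell markers summed to 532 and 265 FPKM in the untreated and injected B6 liver and to 103 and 108 FPKM in the MSM livers, with 0 markers at 0 in any liver. All 14 had a negative MSM minus B6 difference in liver, with a median of -1.65 against 0.01 over all genes. Of them 2 passed the limma test, Lyz2 at -2.88 and Csf1r at -2.38, where 1.47% of all genes passed. The 15 interferon response genes summed to 138 and 110 FPKM in the B6 livers and to 34.8 and 27.2 FPKM in the MSM livers, where 6 of them were at 0 in each. Of the 13 tested in liver, 12 had negative differences, with a median of -2.17. By the limma test 3 passed, Ifit3, Usp18 and Rtp4, beside the same 1.47% of all genes. The part of these cells or genes in the Gsdmd difference was not tested. In thymus the interferon genes were again lower in MSM, at 54.1 and 43.9 FPKM against 111 and 138 FPKM, and the macrophage markers at 188 and 165 FPKM against 256 and 230. Lyz2 took most of that gap, at 41.4 and 25.1 FPKM in MSM against 92.6 and 76 FPKM in B6, and Cd5l went the other way, at 4.63 and 5.42 FPKM in MSM against 0.316 and 0.969 FPKM. In the same thymi Gsdmd was at 7.65 and 9.99 FPKM against 7.92 and 12.4.

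The other necroptosis and pyroptosis genes gave strain differences that did not pass. In liver Aim2 was -1.05 ± 0.46 with a limma adjusted p of 0.353 and Casp1 -1.02 ± 0.49 with 0.397, on 9 fragments or fewer per library. Il18 was 0.13 ± 0.24, with a 95% interval of -0.49 to 0.76 that leaves room for a change in either direction, Mlkl 0.31 ± 0.33 and Il1b 0.38 ± 0.55. Ripk3, Casp4, Nlrp3 and Pycard averaged under 1 FPKM in liver and were not tested there. In thymus the 8 estimates lay between -0.30 (Aim2) and 0.37 (Casp4), with limma adjusted p of 0.716 or higher. Pycard had the narrowest interval of them, -0.56 to 0.53 around -0.01. Without the untreated MSM thymus, Ripk3 was 0.03 in place of -0.29, Casp4 -0.19 in place of 0.37 and Aim2 -0.64 in place of -0.30. Mlkl was then 1.17 in place of 0.30, Il18 0.85 in place of 0.11 and Pycard 0.10 in place of -0.01. Gsdmd was -0.29 in place of -0.17 and Casp1 -0.11 in place of -0.28. These are effect sizes only, since 1 MSM thymus was left.

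None of the partner genes tested passed between strains in either tissue, where 1.47% of all genes passed in liver and 0.973% in thymus. In liver 0 of 20 necroptosis partners passed the limma test, 16 had negative differences and the median was -0.40 against 0.01 over all genes, with Tlr4 at -1.56, Casp8 at -1.45, Zbp1 at -1.38 and Ripk1 at -0.89. Of 16 inflammasome partners tested in liver 0 passed, 14 were negative and the median was -0.79. The largest differences in that list were those of Nlrp6 at -2.93 (limma adjusted p 0.112), the protease inhibitor gene Serpinb1a at -2.53 (0.156), the guanylate-binding protein gene Gbp3 at -2.23 (0.0649) and Nlrp12 at -1.91 (0.12). Nlrp6 was at 28.7 and 44.0 FPKM in the untreated and injected B6 liver and at 7.34 and 1.76 FPKM in the MSM livers, which did not overlap. Of 13 IL-1 family genes 0 passed, with a median of 0.02, and the largest difference was in the other direction: the alarmin gene Il33 was at 13.6 and 9.27 FPKM in the MSM livers and 2.35 and 1.91 FPKM in the B6 livers, a difference of 1.97 ± 0.31 with a limma adjusted p of 0.0705. In thymus 0 of 20, 0 of 21 and 0 of 12 genes of these lists passed, with medians of -0.18, -0.31 and -0.21 against 0.03 over all genes.

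Injected and untreated mice were compared within strain and tissue after centring the libraries of a tissue by their median ratio, with no test. In liver 0 of the 6 genes kept differed by 2-fold or more on the log2(FPKM + 1) scale, in the same direction, in both strains, where 2.88% of 10971 genes did, and in thymus 0 of 8, where 0.698% of 11610 did. With 0.1 added in place of 1, Mlkl was past 2-fold, lower, in the livers of both strains, as were 270 of the 10971 genes. Il18 and Mlkl came closest, both lower in the injected livers of both strains and past 1.5-fold in each. Of the 10971 genes, 1038 differed by 1.5-fold or more in the same direction in both strains, 500 of them lower. Il18 differed by -0.97 in B6 and -0.85 in MSM on the log2(FPKM + 1) scale, which was 25 against 14 estimated fragments in B6 and 28 against 14 in MSM. The untreated to injected ratios of fragments were 1.95 (95% interval 0.975 to 4.06) and 1.80 (0.918 to 3.71), so each strain on its own is within counting error of no change. Mlkl differed by -0.98 in B6 and -0.96 in MSM, 11 against 5 and 15 against 6 fragments, with ratios of 2.40 (0.77 to 8.82) and 2.25 (0.827 to 7.09). Both injected livers lay below both untreated livers for both genes, and the share of all genes that separated in this way was not counted.

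**Figure D4:**
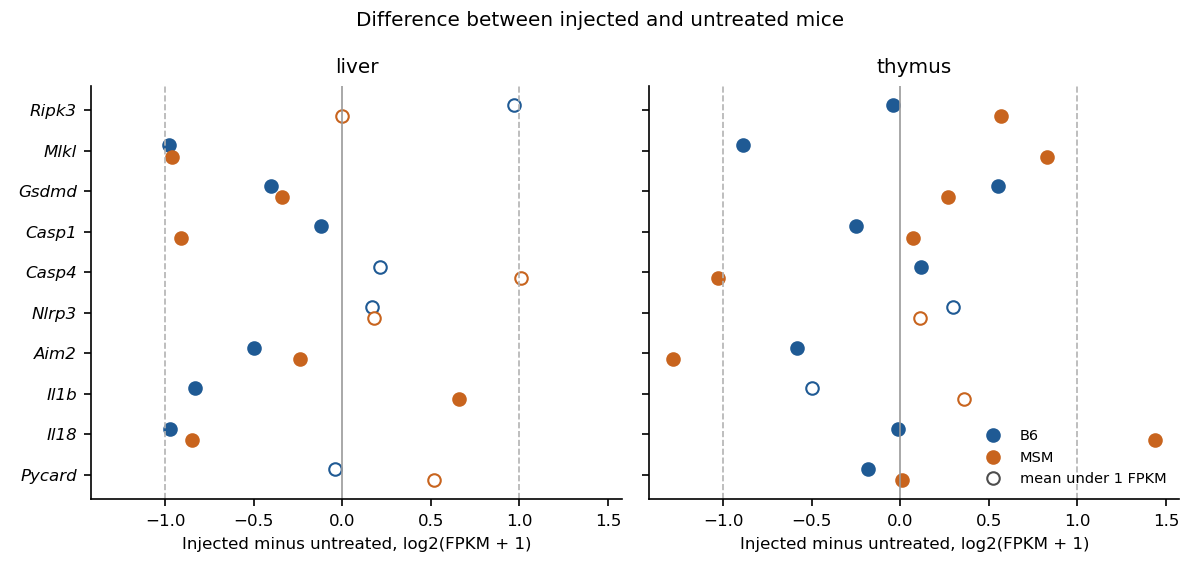
Injected minus untreated difference of log2(FPKM + 1) after centring (horizontal axes) in liver and thymus, blue for B6 and orange for MSM, 1 library per group and no error bars; open points are genes that averaged under 1 FPKM in the tissue and dashed lines mark 2-fold. In liver Mlkl at -0.98 and -0.96 and Il18 at -0.97 and -0.85 lie side by side in both strains, while in thymus the strains differ in sign for Mlkl, at -0.89 and 0.83.

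The remaining genes differed less in liver, or not alike in the strains. Gsdmd differed by -0.40 and -0.34 in the B6 and MSM liver and by 0.55 and 0.27 in the thymus. Aim2 differed by -0.50 and -0.24 in liver and by -0.58 and -1.28 in thymus, where the MSM value was 32 against 11 fragments, a ratio of 3.18 (95% interval 1.56 to 6.99). Casp1 was -0.12 and -0.91 in liver, Il1b -0.83 and 0.66, on 4 fragments or fewer per library. In the MSM thymus alone, Il18 was at least 2-fold higher (1.44, where 1.99% of genes were higher), and Aim2 and Casp4 at least 2-fold lower (-1.28 and -1.03, where 9.23% were lower). By estimated fragments the untreated to injected ratio was 0.218 for Il18 (2 against 10, 95% interval 0.0233 to 1.03) and 2.55 for Casp4 (14 against 6, 0.92 to 8.09), both intervals including 1. Those 3 differences all involve the untreated MSM thymus, the library with hepatocyte, airway and fat markers, and the part of that library in them was not tested. In the B6 thymus 0 of the 8 were 2-fold higher, where 2.1% of genes were, or lower, where 1.75% were. Ripk3 and Pycard, the most abundant thymus genes of the set beside Gsdmd, differed there by -0.04 and -0.18 in B6 and by 0.57 and 0.01 in MSM.

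The liver minus thymus ratio within a mouse compares libraries of the same table, and its difference between injected and untreated mice was the one test that touched the injection. Of 9 genes 0 passed, where 0.0388% of 12880 genes did. An unadjusted limma p under 0.05 was found for 1 of the 9, Il18, and for 974 of the 12880 genes. The ratio of Il18 was 2.91 and 3.62 log2 units in the untreated B6 and MSM mouse and 1.98 and 1.31 in the injected mice, a difference of -1.62 ± 0.48 with an unadjusted limma p of 0.0167 and an adjusted p of 0.589. For Mlkl the difference was -0.94 ± 0.58 (adjusted p 0.749, limma), for Casp4 1.05 ± 0.63 (0.739) and for Gsdmd -0.80 ± 0.37 (0.684). Leaving out 1 mouse at a time, with the strain term dropped, moved these differences to between -1.98 and -1.27 for Il18, -1.38 and -0.50 for Mlkl, 0.09 and 2.01 for Casp4 and -1.64 and 0.05 for Gsdmd. Without the untreated MSM mouse they were -1.27, -0.50, 0.09 and -1.64 in that order, with limma adjusted p of 0.985 or higher.

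Neutrophil markers summed to more in the injected than in the untreated mouse of each strain and tissue. The 9 measured summed to 7.43 and 29.6 FPKM in the untreated and injected MSM liver and to 3.12 and 43.7 FPKM in the thymus. In B6 they summed to 20.8 and 31.7 FPKM in liver and 27.1 and 48.5 FPKM in thymus. Of the 9, 4 to 6 were at 0 in each liver and 2 to 5 in each thymus, and Mpo was at 0 in all 4 livers. S100a8 and S100a9 carried most of the sums, at 16.8 and 11.1 FPKM in the injected MSM liver, and single markers went the other way, such as S100a8 in the B6 thymus, at 22.9 and 17.2 FPKM in the untreated and injected mouse, and Retnlg in the MSM thymus, at 1.75 and 0 FPKM. Il1b, which neutrophils and macrophages make, was 1.03 and 2.26 FPKM in the untreated and injected MSM liver and 0.630 and 1.14 FPKM in the MSM thymus, and lower in the injected than in the untreated B6 tissues, at 4 fragments or fewer in each library. The part of neutrophils in these values was not tested.

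Of the partner genes of the 3 lists, 0 of 49 kept in liver and 0 of 53 in thymus differed 2-fold in the same direction in both strains. Of all genes 2.88% did in liver and 0.698% in thymus. In single strains the MSM liver showed the larger differences of the IL-1 family, in both directions. Il1a was at 0.652 and 6.46 FPKM in the untreated and injected MSM liver, a difference of 2.15, and Il1r1 at 3.69 and 16 FPKM, a difference of 1.83, while the B6 livers differed by -0.47 and 0.13. Irak2 went the other way, at 11.2 and 3.35 FPKM in the untreated and injected MSM liver, a difference of -1.51, and differed by -0.56 in B6. Serpinb1a differed by -2.41 in the B6 liver and Tradd, an adaptor of the TNF receptor, by -1.46. The transcription factor gene Irf2 was higher in the injected livers of both strains, by 1.14 and 0.81. These genes were picked from the 49 for the size of their differences, with 1 library per group and no test. Across the 10971 genes kept in liver, a rise of 2-fold or more occurred in 6.49% in B6 and 6.75% in MSM. A fall of that size occurred in 6.19% and 7.03%.

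For Gsdmd, Il18 and Pycard, which averaged 5 FPKM or more over all 8 libraries, the genes with the most alike pattern were sought among 7421 genes at that level. These are correlations of log2(FPKM + 1) over 8 libraries that share 4 mice, given as a description. Gsdmd was most like Camk1d (Pearson r = 0.941), Pttg1 (0.928) and Riok2 (0.928). Camk1d was at 29.0 and 38.5 FPKM in the B6 livers, 0.251 and 0.552 FPKM in the MSM livers and 4.46 to 10.1 FPKM in the thymi, the same order of strains and tissues as Gsdmd with a wider range. Il18 was most like Fam125a (0.991), Psmb6 (0.984) and Usp14 (0.983), which were higher in liver than thymus and lower in injected than untreated livers. Pycard was most like Diap3, Tpx2 and Ezr, each at 0.997. Diap3, for example, was at 0 to 0.576 FPKM in the livers and 10.3 to 14.7 FPKM in the thymi, so this value follows the gap between the tissues.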

How the data were processed

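TopHat, Cuffdiff 2.2.1 and the mm10 build are named for reads of polyadenylated RNA, per the submitters' processing notes; the gene annotation and settings are not given in the sources used here. The authors deposited FPKM values in 1 table for untreated and 1 for injected mice, normalized separately, 23284 genes each, all with status OK. The lower bound deposited by the authors was 0 for each of the 80 values of these genes. mm10 is a B6 assembly, and how many MSM reads failed to align was not tested.

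Levels were compared as log2(FPKM + 1), which shrinks differences of low genes. Genes averaging at least 1 FPKM in the libraries compared (in either tissue for tissue comparisons) were tested with limma 3.58.1 with mean trend in R 4.3.3, two-sided, Benjamini-Hochberg adjusted over all genes tested, threshold 0.05. Injection values were centred by the median ratio and not tested. Replicates of a group do not exist; p-values measure the spread of a difference over treatments or mice. The code was tested on simulated data.

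Depth was estimated from low FPKM of 9508 genes with 1 RefSeq transcript of at least 1500 nucleotides, as the scale that made most values whole fragments: 71.8% to 74.6% of 1326 to 1516 values per library were whole within 0.1, against 20% by chance. The effective length was read from the values for Mlkl, Aim2 and Pycard, so their fragments are less certain. Intervals are exact, at 95%: Poisson for fragments and Clopper-Pearson for ratios.

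The genes and lists were chosen with earlier results of these data known. All 10 genes are named; of each other list, genes past the threshold and the 4 with the largest difference could be named, and the 3 most alike genes for those averaging 5 FPKM. Alternatives were added values of 0.1 and 5, no filter or a filter of 5 FPKM, median centring, TPM, limma without trend or robust, other model terms, and leaving out a library or mouse.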

Additional observations from a re-analysis of the deposited data

Results flagged for a closer look

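Gsdmd was lower in the injected than in the untreated liver of both strains, by -0.40 in B6 and -0.34 in MSM on the log2(FPKM + 1) scale, and higher in the injected thymus of both, by 0.55 and 0.27. The difference between the tissues, tested on the ratio within each mouse, had a limma adjusted p of 0.684. Nlrp3 was lower in MSM than in B6 in both livers, by -0.17 and -0.17, and higher in both thymi, by 0.46 in untreated and 0.29 in injected mice, on 6 fragments or fewer per library. That contrast was not tested, since Nlrp3 lay under the filter.

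Il1b was lower in both injected B6 tissues, by -0.83 in liver and -0.50 in thymus, and higher in both injected MSM tissues, by 0.66 and 0.36. Pycard was lower in both injected B6 tissues, by -0.04 in liver and -0.18 in thymus, and higher in both injected MSM tissues, by 0.52 and 0.01. For Il1b and Pycard the difference between the strains was not tested, and the Il1b values and the liver values of Pycard rest on 4 fragments or fewer. In thymus the untreated to injected ratio of Pycard fragments was 1.10 in B6 (95% interval 0.888 to 1.37) and 0.943 in MSM (0.746 to 1.19). Both intervals, of counting error only, include 1.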

How the results depend on the processing

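No paired analysis was possible because the labels number no replicates, beyond the pairing of liver and thymus by mouse that the tissue tests already use. Of the genes' own values under alternatives, 466 kept direction and side of the threshold, 19 changed sign, 12 lost and 4 gained the call. A further 11 untested values moved, and the causes were not tested. For the tissue ratio this tally covers only Gsdmd, Casp4 and Pycard between strains and Il18, Casp4, Mlkl and Gsdmd for the injection. Genes left out of it also changed sign. Between strains the Mlkl ratio ran from -0.89 to 0.92 and that of Il18 from -1.14 to 1.17. For the injection the Casp1 ratio ran from -1.66 to 0.21.

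Genes past the limma threshold between strains in liver numbered 161, and 0 without filter, 354 on the TPM scale, 37 without trend and, in the fit of both tissues (189 in full), 0 without any 1 library, with 1 of the 6 genes described (Gsdmd) past it on the TPM scale and with both tissues in one fit. In thymus they numbered 113, and 300 with 0.1 added, 0 without filter, 184 with the filter of 5 FPKM, 61 centred, 39 on the TPM scale, 44 without trend, 274 with robust moderation, 44 with both tissues in one fit and, in that fit, 0 to 113 without 1 library. Between tissues 6 genes described passed, but 3 without filter and 3 with the filter of 5 FPKM, which tests fewer of them. For the strain difference of the tissue ratio the count was 47, and 5 and 132 with 0.1 and 5 added, 0 without filter, 15 with the filter of 5 FPKM, 27 centred, 26 on the TPM scale, 26 without trend, 30 with robust moderation and 0 to 51 without 1 mouse, the other model term dropped. For the injection difference of that ratio it was 5, and 1 with 0.1 added, 0 without filter, 3 with the filter of 5 FPKM, 3 centred and 0 to 1 without 1 mouse, likewise. Genes at least 2-fold different in both strains after injection numbered 316 in liver, and 554 and 107 with 0.1 and 5 added, 197 with the filter of 5 FPKM and 1038 at 1.5-fold, where 2 described genes passed (1, Mlkl, with 0.1 added). In thymus they numbered 81, and 230, 25, 39 and 370.

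On the TPM scale Il18 between strains in liver turned to -0.03 and Il1b between tissues to -0.07, and the median of all genes between strains in liver moved from 0.01 to -0.14. Without 1 library in the fit of both tissues, Il1b between strains in liver ran from -0.37 to 1.13, and in thymus Ripk3 from -0.61 to 0.03, Mlkl from -0.58 to 1.17, Casp4 from -0.19 to 0.92, Aim2 from -0.64 to 0.03, Il18 from -0.62 to 0.85 and Pycard from -0.12 to 0.10. Without 1 mouse, Gsdmd between tissues ran from -0.55 to 0.23 and, with the other term dropped, the strain difference of the Casp4 ratio from -1.97 to 0.03 and the injection difference of the Gsdmd ratio from -1.64 to 0.05. At 6 fragments or fewer per library, Nlrp3 and Il1b could show no difference of modest size, nor could Ripk3, Casp1, Casp4 and Pycard in liver.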
